A study of Mus musculus with 4 samples.

Results

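Nucleolar ribosome assembly factors are the proteins that fold, cut and modify the ribosomal RNA precursor and join it with ribosomal proteins. A list of 60 mouse gene symbols defined the set described here, and 59 of them are rows of the count table, which holds 24391 genes. All 59 passed the filter on low counts and were among the 12266 genes tested, whereas Noc2l was not analysed here. The set comprises 30 factors of the small subunit, 16 of the large subunit, 8 proteins of small nucleolar ribonucleoprotein particles (snoRNPs) and 5 nucleolar proteins of general function. Membership was decided by symbol, but the members and the other lists were chosen with earlier results of these data known.

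RNA-Seq was measured in Beko cells, a mouse progenitor T-cell line in which the Notch pathway is constitutively active. A γ-secretase inhibitor (GSI), DAPT, blocks the release of the active intracellular part of Notch1. In the GSI group, 2 libraries come from cells kept in DAPT for 48 h. In the washout group, 2 libraries come from cells kept in DAPT for 48 h, washed, and cultured for 24 h more without it. The study's methods state for the washout experiments that the inhibitor was washed away and renewed at 24 h. The labels give the DAPT dose as 10 mg/ml for all libraries, a value that the study's methods state with another unit. All cells are of a single line without a genetic change between the groups, grown with 2% serum, and the labels do not say whether replicates are separate cultures. The p-values below therefore measure the spread between these libraries, which may be technical. A washed culture that never received inhibitor is not among the libraries used here. The return of Notch activity, the last wash and the longer culture therefore cannot be told apart.

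Ribosome production starts in the nucleolus, where RNA polymerase I transcribes a long precursor that carries the rRNAs of both subunits. The small-subunit processome assembles on the nascent end of this precursor around the U3 snoRNP, and a separate series of factors builds the pre-60S particle of the large subunit. Box C/D snoRNPs add methyl groups to the rRNA and box H/ACA snoRNPs convert uridine to pseudouridine, each guided by a small RNA. In lymphocytes, nucleoli enlarge when cells leave the resting state and grow.

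The libraries held 13716199 to 36364200 counts, with replicate 1 the deeper library in both groups. Levels are given as normalized CPM, that is, counts relative to the library total times a TMM factor. At this depth, 3 counts correspond to between 0.0881 and 0.223 CPM, far below the lowest member. Among the markers of the labelled cell type, 10 of 10 T-cell progenitor genes were tested, and single genes moved in both directions. Ptcra rose by 2.37 and Gata3 fell by 1.67 on the log2 scale past both thresholds, and with the adjusted p-value alone Cd3g (0.86) was higher as well and Tcf7 (-0.87), Cd247 (-0.73) and Thy1 (-0.58) were lower. Their summed level, of which Rag1 is the largest part, was 5392 and 5931 CPM with GSI and 5751 and 5658 CPM after washout. Of the 5 B cell markers none was tested, each with 0 to 14 counts, and Pax5 and Ms4a1 were at 0. Of the 5 myeloid markers only Itgam was tested. It fell, at 48.7 and 37.9 CPM with GSI and 5.38 and 4.76 CPM after washout, while Lyz2 was at 0 and Csf1r, Mpo and Cd14 had at most 7 counts. Erythroid markers summed to 23.8 and 21.5 CPM with GSI and to 11.3 and 10.8 CPM after washout, with Hba-a1 and Hbb-b1 at 0. Of the 3 tested, Gata1 and Klf1 fell past both thresholds (Klf1 was not called with DESeq2, adjusted p = 0.209). Epor was lower with the adjusted p-value alone (log2 fold change -0.86, edgeR adjusted p = 0.00721). The part of these markers in the results below was not tested. Of 5 Notch target genes, Hes1, Hey1, Dtx1, Nrarp and Notch1, all were upregulated upon washout, and 4 with DESeq2, where Hes1 was not called.

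Upon washout, 48 of the 59 assembly factors were upregulated and 0 were downregulated by the thresholds of the study, which ask for a log2 fold change beyond 1 in either direction and an adjusted p-value below 0.05 (edgeR's quasi-likelihood test). The same thresholds called 7.74% of all genes tested higher and 11.7% lower. With the adjusted p-value alone all 59 members were higher, against 27% of all genes. In all 59, both washout libraries lay above both GSI libraries, which was the case for 38.2% of all genes. The median log2 fold change of the members was 1.36, a ratio of 2.57, with quartiles of 1.09 and 1.61. Across all genes tested the median was -0.01. The members ranged from 0.53 for Utp3 to 2.24 for Dkc1, and 49 of them were among the 1000 highest log2 fold changes. Since most members are well expressed, the background was also taken over the 7461 genes within their range of mean level, of which 9.26% were called higher. Of all calls, 950 higher and 1437 lower, 39.8% were higher. With the total count alone in place of TMM factors, the calls were 586 and 1963 (22.99% higher, 4.78% of the genes tested), the median of all genes shifted by -0.20 and 39 members were upregulated. Imp4, Nob1, Noc4l, Nol11, Nol6, Rcl1, Wdr3, Wdr46 and Wdr74 then had log2 fold changes under 1. A change of scaling shifts all genes by about the same amount. The median of the members therefore stayed 1.37 above the median of all genes by construction. All 59 values were above 0 under both scalings. DESeq2 called 49 members, with Nop9 in addition, and 7.41% of all genes higher. When the test required a change beyond a log2 fold change of 1 (glmTreat), 32 members and 2.51% of all genes passed. In bulk RNA, a change in the share of cells that express a gene and a change in its RNA per cell cannot be told apart.

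**Figure D1:**
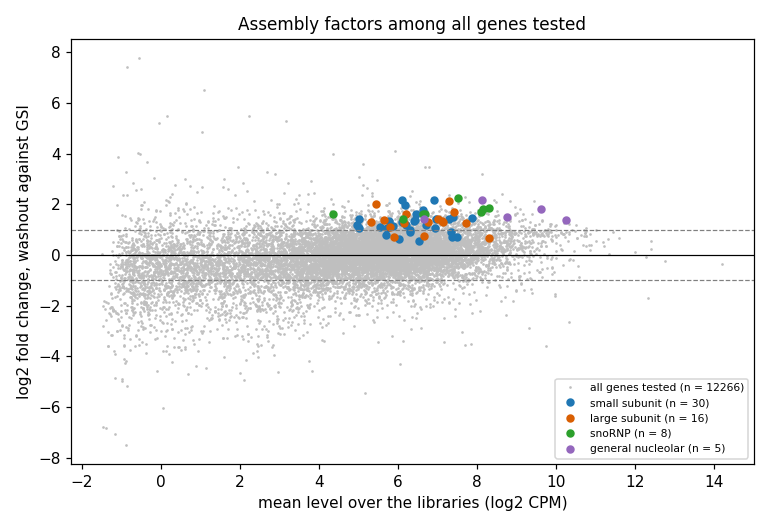
Each point is a gene, with the mean level over the 4 libraries (log2 CPM) on the x axis and the log2 fold change (washout over GSI) on the y axis. Grey points are the 12266 genes tested, coloured points the 59 assembly factors by class, and dashed lines mark 1 and -1. All coloured points lie above 0, between 0.53 and 2.24.

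Summed over the set, the assembly factors took 0.528% and 0.505% of all counts in the GSI libraries and 1.29% and 1.12% in the washout libraries. Their summed level rose to 13791 and 12099 CPM from 4899 and 4748 CPM, a ratio of group means of 2.68. Replicates differed far less than the groups, with a median absolute log2 difference per member of 0.0895 between the GSI libraries and 0.102 between the washout libraries. Washout replicate 1 was higher than washout replicate 2 for 44 of the 59 members. For each member, the lower washout library was also set against the higher GSI library as a ratio. This ratio was smallest for Utp3, at 1.32, and largest for Dkc1, at 4.21. Members of one list share libraries and scaling and are not replicates of the condition.

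**Figure D2:**
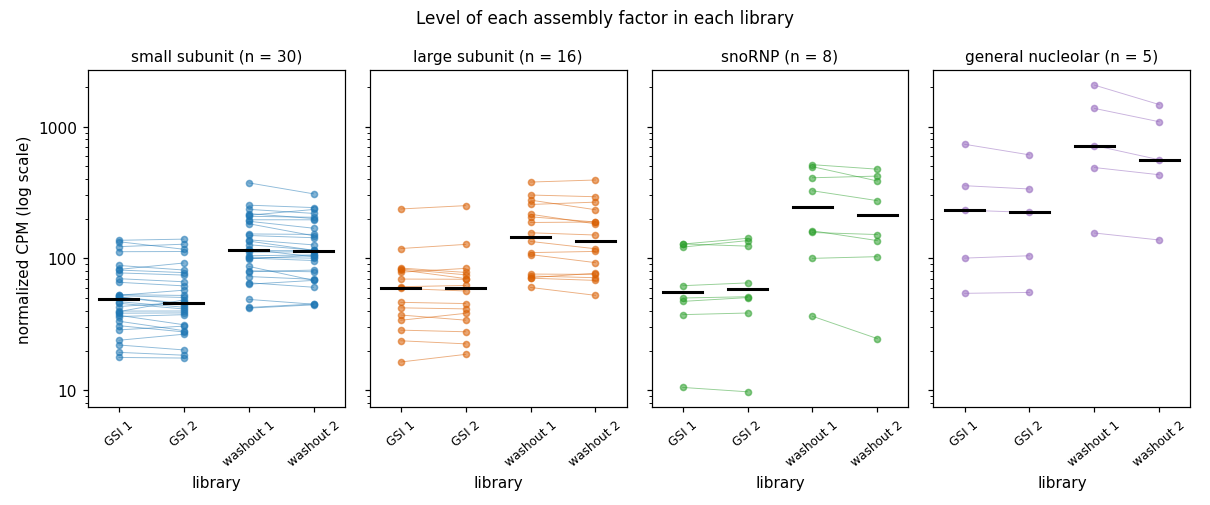
Normalized CPM of each assembly factor (log scale) in each of the 4 libraries, in 1 panel per class. Points of replicates are joined by thin lines, and black bars mark the median of the class in that library. In every class the medians of both washout libraries lie above those of both GSI libraries.

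The snoRNP proteins had the highest median of the 4 classes, 1.65, and all 8 were upregulated. Their summed level rose from 586.3 and 617.3 CPM to 2200 and 1972 CPM. Dkc1, the pseudouridine synthase of box H/ACA particles and of telomerase, had 62.1 and 65.2 CPM with GSI and 325.7 and 274.1 CPM after washout. Both washout libraries exceeded either GSI library more than 4-fold, and the log2 fold change of Dkc1 was 2.24 (standard error, SE, 0.121, edgeR adjusted p = 0.000294). Dkc1 lies on chromosome X from 72341193 to 72355116 (mm9) and its exons overlap those of Mpp1 on the other strand. The remaining core proteins of these particles are Gar1, Nhp2 and Nop10. Nhp2 rose from 50.1 and 51.2 CPM to 157.2 and 151.6 CPM, and Nop10 from 37.4 and 38.5 CPM to 100.1 and 103.1 CPM. Replicates of both genes lay close together, and the log2 fold changes were 1.61 for Nhp2 and 1.42 for Nop10. Gar1, with the lowest mean CPM of all members when length is not considered, had 10.5 and 9.73 CPM with GSI and 36.4 and 24.6 CPM after washout. Its washout libraries differed by 0.56 on the log2 scale, the widest replicate gap in the set. The log2 fold change of Gar1 was 1.60 (SE 0.208), and in glmTreat against 1 its adjusted p-value was 0.0511.

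Box C/D particles contain Fbl (fibrillarin), the methyltransferase, with Nop56 and Nop58 as scaffold. Fbl had 47.2 and 50.4 CPM with GSI and 161.8 and 136.5 CPM after washout. Nop56 had 121.8 and 136.4 CPM with GSI and 408.8 and 420.9 CPM after washout, and Nop58 had 128.8 and 123.9 CPM against 495.9 and 386.5 CPM. The groups were well separated for all of them, with log2 fold changes of 1.61 for Fbl (SE 0.117), 1.68 for Nop56 (0.107) and 1.80 for Nop58 (0.144). Nop58 lies on chromosome 1 from 59741853 to 59768968. Nolc1 (Nopp140), a chaperone of snoRNPs in the nucleolus and Cajal bodies, had 128.4 and 142.0 CPM with GSI and 513.7 and 474.9 CPM after washout. It rose by 1.87 on the log2 scale. Its relative Tcof1, which is not a member, rose by 1.48.

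The 5 general nucleolar proteins were all upregulated, with a median of 1.49. Their summed level rose from 1476 and 1329 CPM to 4797 and 3683 CPM. Mybbp1a, a Myb-binding protein that acts in rRNA transcription and processing, had 100.5 and 104.7 CPM with GSI and 488.7 and 430.9 CPM after washout. It rose by 2.16 (SE 0.113), the largest log2 fold change of this class. Its exons overlap those of Spns2 on the other strand. Npm1 (nucleophosmin), a histone and ribosome chaperone, had 355.9 and 336.0 CPM with GSI and 1373 and 1087 CPM after washout. Npm1 rose by 1.83, and as it has processed copies elsewhere in the genome and reads were reported at a single alignment, its counts are less certain than those of unique genes. Npm3, which resembles Npm1, had 54.3 and 55.2 CPM with GSI and 155.8 and 137.9 CPM after washout and rose by 1.42. Ddx21, an RNA helicase of rRNA transcription and processing, had 232.3 and 223.2 CPM with GSI and 718.0 and 559.9 CPM after washout, a log2 fold change of 1.49. Ncl (nucleolin), which binds the rRNA precursor, had 733.5 and 609.8 CPM with GSI and 2062 and 1467 CPM after washout. Its replicates lay further apart than those of most members, and the log2 fold change of Ncl was 1.39 (SE 0.201, edgeR adjusted p = 0.00217). In glmTreat against 1 the adjusted p-value of Ncl was 0.135.

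Since longer transcripts give more counts, levels of different genes were compared as CPM per kb of the main coding transcript. On this scale, Npm1 had the highest level of all members, 211.8 in GSI and 753.2 upon washout. Upon washout Nop56 followed with 221.0, Emg1 with 216.3, Ncl with 213.7 and Rrp1 with 192.3 CPM per kb. The transcript length of Ncl in the annotation, 8257 nucleotides, is far above its coding sequence of 2124 nucleotides, and per kb of coding sequence Ncl had 830.8 CPM after washout. The order below Npm1 depends on the length used. Per kb of coding sequence Npm1 (1399 CPM after washout) was still highest, but Nop10 (520.8) and Nhp2 (334.2) then lay above Nop56 (238.0). In GSI, Emg1 (134.0) and Rrp1 (121.6) ranked directly after Npm1, above Ncl (81.3) and Nop56 (68.8).

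**Figure D3:**
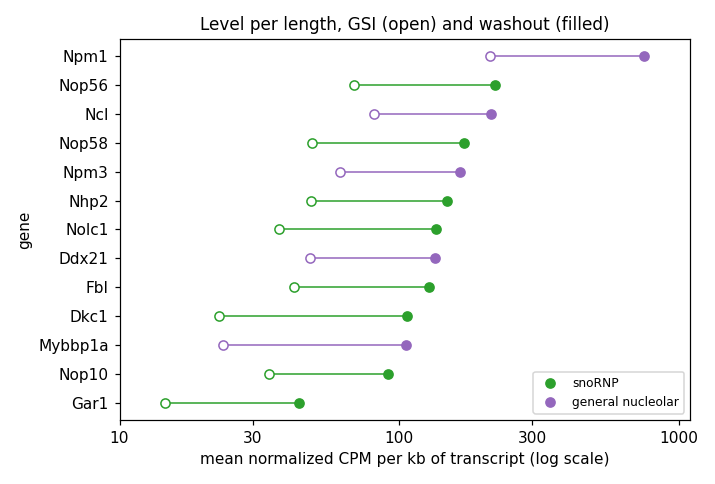
Mean normalized CPM per kb of the main coding transcript (log scale) for the snoRNP and general nucleolar proteins, with open points for GSI and filled points for washout, each the mean of 2 libraries. Npm1 lies highest in both groups, at 211.8 and 753.2, and Gar1 lowest, at 14.5 and 43.8. The length used for Ncl is 8257 nucleotides, which places it lower than its coding length would.

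Of the 30 small-subunit factors, 22 were upregulated, with a median log2 fold change of 1.19. Of the UTP-A module, which binds the precursor first, the set holds Utp15, Nol11, Wdr43, Wdr75 and Heatr1. All 5 were upregulated, from 1.06 for Nol11 to 1.60 for Wdr75. Cirh1a (Utp4), a UTP-A subunit outside the set, rose by 1.21. In the UTP-B module, which joins next, 4 of the 5 members of the set were upregulated. Pwp2 led with 1.77, followed by Wdr36 (1.40), Utp18 (1.37) and Wdr3 (1.19). Tbl3, a UTP-B subunit outside the set, had 0.89 and was not called. Utp6 was not past both thresholds, with 112.4 and 112.7 CPM in GSI, 218.8 and 200.5 CPM after washout and a log2 fold change of 0.90. Rrp9, the protein that recognizes U3, had 30.9 and 27.7 CPM with GSI and 114.8 and 114.2 CPM after washout. It rose by 1.96 (SE 0.101), and its exons overlap those of Parp3 on the other strand. Imp3 and Imp4 attach to the U3 particle. Imp4 was upregulated with 1.19, and Imp3 had 52.2 and 50.5 CPM with GSI and 80.6 and 79.2 CPM after washout, a log2 fold change of 0.64. The difference between them was not tested.

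Among the 13 remaining processome factors, 7 were upregulated, the lowest share of any group with 3 or more members. Utp20, a very large helical repeat protein, had 39.4 and 48.5 CPM with GSI and 196.3 and 196.1 CPM after washout. Its GSI libraries showed the widest gap between GSI replicates, 0.30 on the log2 scale, and both lay far below the washout libraries. The log2 fold change of Utp20, the largest in the small-subunit class, was 2.16 (SE 0.124). Nol10 (1.41), Nop14 (1.30), Nol6 (1.17), Noc4l (1.13), Wdr46 (1.09) and Rcl1 (1.05) were upregulated as well. The other 6 had values at or under 1. Nop9 had 53.1 and 52.4 CPM with GSI and 104.8 and 106.2 CPM after washout, and its log2 fold change, 0.9999, fell just short of the threshold. Utp14a, the activator of a helicase, had 52.5 and 57.4 CPM with GSI and 99.3 and 105.3 CPM after washout, and Utp11l had 38.4 and 38.6 CPM against 63.7 and 68.1 CPM. Their log2 fold changes were 0.90 and 0.77. Bms1, a GTPase, had 122.8 and 128.1 CPM with GSI and 208.6 and 205.1 CPM after washout, and Emg1, a methyltransferase of 18S rRNA, had 137.2 and 140.0 CPM against 212.4 and 234.9 CPM. The log2 fold changes were 0.72 for Bms1 and 0.69 for Emg1. Utp3 had the smallest value of all members, 0.53 (SE 0.104, edgeR adjusted p = 0.00665), from 77.6 and 74.7 CPM with GSI and 117.5 and 102.7 CPM after washout.

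The 4 members of the set that act in late small-subunit maturation were all upregulated. Factors of this stage outside the set were mixed. Pno1 rose by 1.96, whereas Riok2 (0.87), Riok1 (0.37) and Bysl (-0.23) were not called. Rrp12, which takes part in the export of pre-ribosomes, had 23.9 and 26.6 CPM with GSI and 111.5 and 112.3 CPM after washout. Replicates agreed closely and the log2 fold change of Rrp12 was 2.15 (SE 0.101). Tsr1 rose by 1.42 and Ltv1 by 1.33. Nob1, the endonuclease that forms the mature end of 18S rRNA, rose by 1.05, close to the threshold.

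**Figure D4:**
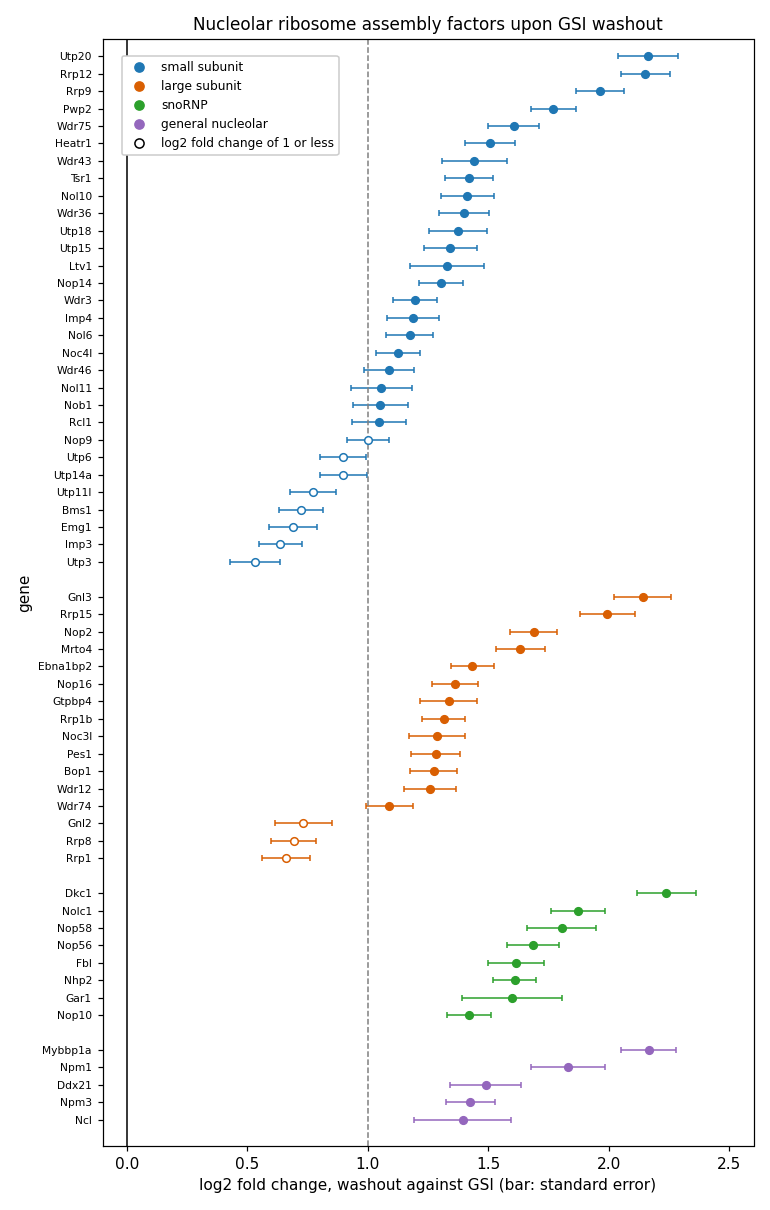
Log2 fold change (washout over GSI) for the 59 assembly factors, sorted within each class, with bars for the standard error. Filled points are past both thresholds, open points have a log2 fold change of 1 or less, and the dashed line marks 1. Open points occur in the small-subunit (8) and large-subunit (3) classes, and the snoRNP and general nucleolar classes have none.

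Of the 16 large-subunit factors, 13 were upregulated, with a median of 1.30. The PeBoW complex, which is needed for processing of the precursors of 28S and 5.8S rRNA, was among the most even groups. Its subunits Pes1 (1.28), Bop1 (1.27) and Wdr12 (1.26) had nearly equal log2 fold changes, well within their standard errors of 0.101, 0.0973 and 0.106. Noc3l, the Noc complex subunit analyzed, rose by 1.29. In contrast, the nucleolar GTPases lay far apart. Gnl3 (nucleostemin), a GTPase named for its abundance in stem cells, had 59.1 and 56.6 CPM with GSI and 276.6 and 233.9 CPM after washout, a log2 fold change of 2.14 (SE 0.118). Gnl2, of the same family, had 81.8 and 70.3 CPM with GSI and 134.4 and 118.3 CPM after washout, a log2 fold change of 0.73 (SE 0.118). Gnl3l, a further relative outside the set, had 0.26 on the same scale. Gtpbp4 rose by 1.33. Gnl3 overlaps Glt8d1 and Gnl2 overlaps Dnali1, each on the other strand.

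Of the 9 other pre-60S factors, 7 were upregulated. Rrp15 had 16.4 and 18.7 CPM with GSI and 70.8 and 68.1 CPM after washout and rose by 1.99. Nop2, a methyltransferase of 28S rRNA and an antigen of proliferating cells, had 78.6 and 84.0 CPM with GSI and 256.4 and 267.1 CPM after washout and rose by 1.69. The washout libraries of both genes lay at least 3-fold above their GSI libraries. Mrto4 (1.63), Ebna1bp2 (1.43), Nop16 (1.36), Rrp1b (1.32) and Wdr74 (1.09) were upregulated too. Rrp1, the paralog of Rrp1b, had 237.0 and 251.3 CPM with GSI and 379.2 and 393.1 CPM after washout. Its log2 fold change was 0.66, beside 1.32 for Rrp1b, and its level per kb was the highest of the class in both groups. Rrp8, which methylates 28S rRNA, had 46.4 and 45.4 CPM with GSI and 71.5 and 77.2 CPM after washout, a log2 fold change of 0.69. The exons of Rrp8 overlap those of Ilk on the other strand.

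For comparison, a list of 81 other assembly factors was taken from the known pathway, of which 80 were tested. Of these, 35 were upregulated and 0 downregulated past both thresholds, with a median log2 fold change of 0.95. With the adjusted p-value alone, 72 were higher and 1 was lower. The exception was Gltscr2, a factor of the large subunit, with 243.0 and 223.8 CPM with GSI and 162.8 and 187.8 CPM after washout (log2 fold change -0.41, edgeR adjusted p = 0.0224). Small-subunit factors of this list were called in 7 of 29 cases, with the highest value for Pno1 (1.96), an RNA-binding partner of Nob1, and the lowest for Bysl (-0.23, edgeR adjusted p = 0.0903). Of 40 large-subunit factors 19 were called, with the highest value for Rrs1 (1.84), which brings the 5S particle to the pre-60S subunit. Of 11 snoRNP assembly and core factors 9 were called, from Nhp2l1 (1.52), which binds the C/D guide RNAs, to Znhit3 (1.03), while Coil (0.51) and Pih1d1 (0.26) were not. In both lists the snoRNP group had the highest median and the small-subunit group the lowest, and the differences between groups were not tested.

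**Figure D5:**
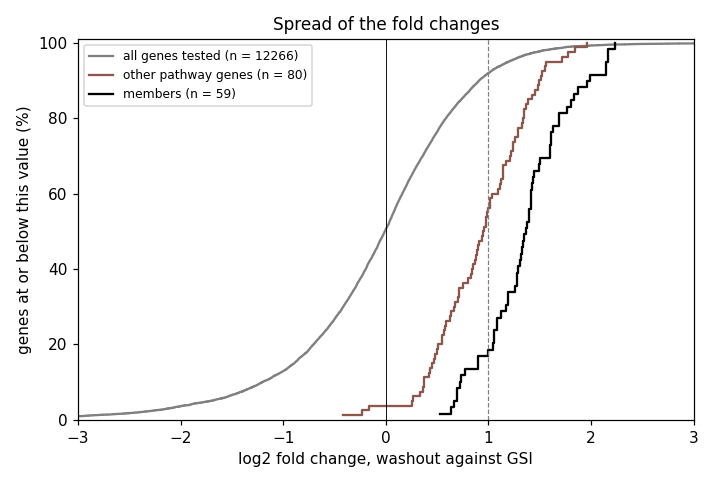
Cumulative share of genes (%) at or below each log2 fold change (washout over GSI), for all 12266 genes tested, the 80 other pathway genes and the 59 members. The dashed line marks 1. The medians are -0.01, 0.95 and 1.36.

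Within the set, the log2 fold change varied little with the GC content of the exons (Spearman correlation -0.08 across 58 genes) or with transcript length (0.17), and somewhat more with mean level (0.28 across 59 genes). Across the 10962 genes tested that had an annotated length and GC content, the first 2 correlations were -0.17 and -0.12 (exon length). With mean level the correlation was 0.32 across all 12266 genes tested. The mean level includes the washout libraries, so it is not independent of the fold change. Genes of these libraries share depth and scaling and are not independent, so no p-value is attached. Several members carry snoRNA genes: 20 lie within 7 of them (mm9), and 9 of these have a row of their own in the table. Snord69 and Snord19, in introns of Gnl3, had 27 and 7 counts and 25 and 4 counts in GSI against 84 and 33 and 78 and 33 counts upon washout, and both were upregulated (log2 fold changes of 1.81 and 2.01). Snora75 and Snord82 in Ncl, Snord110 and Snord57 in Nop56 and Snord91a in Tsr1 were tested and not called, with values from 0.25 to 0.84. The other rows, Snord70 and Snord11 in Nop58, had at most 14 counts and were not tested. Fragments of unspliced host RNA that fall on these short genes cannot be separated from the snoRNA in the counts. The rRNA precursor is listed as Rn45s, with 17057 and 25251 CPM with GSI and 15410 and 17890 CPM after washout (log2 fold change -0.35, SE 0.264, edgeR adjusted p = 0.313). The library kit removes ribosomal RNA, so this row does not measure how much precursor was made.

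Promoter sequences of RefSeq (GRCm38.p6, 250 bases before to 50 after each start) were found for 50 of the 59 members. They were searched on both strands for CACGTG, the E-box that Myc family proteins and others can bind, for TGGGAA, the RBPJ motif, and for GGGCGG, an SP motif, each counted on its own even where matches overlap. CACGTG was present in 11 of 50 members (22%), compared with 11.6% of all tested genes with a promoter entry and 8.09% of all genes in the promoter table. TGGGAA was found in 26% of members and 26.2% of tested genes, and GGGCGG in 74% and 67.8%. In the study, RBPJ sites that lost binding upon GSI lay mostly away from transcription starts. Their motif was TGRGAA, where R is A or G. Distal sites and the TGAGAA form were not searched here, so these shares do not cover them. The members with CACGTG were Imp4, Nol11, Nop2, Utp18, Wdr46, Wdr43, Tsr1, Ltv1, Pes1, Utp20 and Mybbp1a, of which 8 are small-subunit factors, and 0 of the 7 snoRNP promoters held it. The median log2 fold change was 1.38 for members with the motif and 1.36 for the 39 without, and this difference was not tested. In 5 members the E-box starts before the transcription start, and these stretches are shown because their shared letters can be seen beside otherwise different flanks. Capitals mark CACGTG, with up to 40 bases on each side, in the orientation of the gene and 5′ to 3′.
Imp4, chr1:34439668-34439753, plus strand: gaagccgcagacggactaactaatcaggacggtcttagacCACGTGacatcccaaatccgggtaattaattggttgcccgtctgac
Nol11, chr11:107189382-107189464, minus strand: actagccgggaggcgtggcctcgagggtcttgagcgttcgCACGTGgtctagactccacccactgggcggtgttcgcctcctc
Nop2, chr6:125131783-125131868, plus strand: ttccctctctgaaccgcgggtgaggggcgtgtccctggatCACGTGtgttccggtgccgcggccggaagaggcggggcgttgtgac
Utp18, chr11:93885767-93885826, minus strand: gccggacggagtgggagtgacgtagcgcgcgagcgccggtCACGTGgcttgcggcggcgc
Wdr46, chr17:33940671-33940722, plus strand: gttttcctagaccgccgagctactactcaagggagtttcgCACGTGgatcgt
The first base of the E-box lies 121, 43, 60, 20 and 12 bases before the start in this order. The log2 fold changes of these genes were 1.19, 1.06, 1.69, 1.37 and 1.09, on both sides of the median of the set. A match describes the letters of the window and not binding, which was not measured in these libraries.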

How the data were processed

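RNA-Seq of total RNA, depleted of ribosomal RNA by the stranded library kit, was measured in 4 libraries of Beko cells, 2 in GSI and 2 upon washout. Reads had been trimmed by the authors and mapped to mm9 by HISAT2 (version 2.2.1 in the submitters' processing notes) with 1 alignment per read, and the authors deposited raw counts per gene. No column lacked a sample (0). The strand setting and overlap mode of the counting are not given in the sources used here, so counts of members whose exons overlap a neighbor are uncertain. These include members whose overlap is not given above, among them Nhp2, Npm3, Nop56, Emg1 and Utp14a. In Nop56, snoRNA genes on the same strand overlap the exons as well. Groups and replicate numbers were taken from the labels.

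Counts were compared by the quasi-likelihood test of edgeR 4.0.16 (R 4.3.3) without covariates, after filterByExpr and with TMM factors, adjusted by Benjamini-Hochberg over all 12266 genes tested. Standard errors were obtained by dividing log2 fold changes by the square root of F. Intervals of counting error were not needed, and the limit of 3 counts covers counting error only. Positions and lengths come from GENCODE vM1 on mm9, which matched 20641 of 24391 symbols and 58 members, Nop9 excepted. Promoters are those of RefSeq. The test was checked on simulated data.

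The members and lists were chosen with earlier results of these data known. Values in every library are given for the 3 largest and 2 smallest log2 fold changes of each subunit class, all snoRNP and general nucleolar proteins, all members not past both thresholds, and the 5 highest levels per length. Of the other pathway genes, the extremes of each list are named, and genes outside this rule were chosen after their values were seen. Alternatives were DESeq2 1.42.0, its size factors or the total count in edgeR, no filter, a minimum of 10 counts per library, a block for replicate number, thinning to the smallest library with and without the block, the adjusted p-value alone, glmTreat, offsets for GC content and exon length, and leaving out each library.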

Additional observations from a re-analysis of the deposited data

How the results depend on the processing

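All members with a value had log2 fold changes above 0 under every alternative, and outside glmTreat, with which 32 were called, between 39 (total count alone) and 49 were upregulated past both thresholds. Total-count scaling gave 586 genes higher, 14 small-subunit members, a member median of 1.16 and a summed ratio of 2.34 (2.68 with TMM). The adjusted p-value alone gave 3315 genes higher, 3120 lower and, of the other pathway genes, 72 higher and 1 lower. With glmTreat there were 308 genes higher, 501 lower, 13 small-subunit and 8 large-subunit members and 17 other pathway genes. After correction for GC content and exon length, which had no value for Nop9, the member median was 1.26, and Nol11 was not called. Leaving out 1 library at a time moved this median between 1.28 and 1.43 and the count of members between 46 and 49. In these fits the lone sample is assumed to vary like the other group. Total-count scaling shifts all genes by about the same amount, and the adjusted p-value alone and glmTreat change the call itself. The cause of the other shifts was not tested. Nop9 passed the threshold with DESeq2 (1.02), its size factors (1.002), no filter (1.04) and without GSI replicate 1 or washout replicate 1 (1.01 each). Thinned to the smallest library, 46 members were called, without Nob1 and Rcl1. Among the 39 members free of exonic overlap, 33 were upregulated. The labels do not say what libraries with the same replicate number share. Deviations of same-numbered libraries correlated at 0.497 across genes. Replicate 1 was the deeper library in both groups, so depth and other shared features cannot be told apart in this value. With the replicate block 981 genes were higher, 1576 lower and 48 members upregulated. It changed no call of a member. With 2 libraries per group, genes near a log2 fold change of 1 cannot be placed firmly on either side.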
